A study of Homo sapiens with 8 samples.

Results

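The EGR, NR4A and IER families are represented here by 10 genes, EGR1 to EGR4, NR4A1 to NR4A3, IER2, IER3 and IER5, selected by symbol from 27936 genes with an Entrez identifier in count tables of HEK293 cells. HEK293 is a human embryonic kidney line, and the study set 4 libraries labelled TIP60 knock-out (KO) against 4 labelled control. TIP60, encoded by KAT5, is a lysine acetyltransferase that acts on histones and other proteins. The KO libraries carry the genotype label HEKg1/C9 and the control libraries HEKg1, so HEKg1 is common to both, and the labels do not explain either term. Each arm holds 2 libraries with a guide RNA named sgRNA1 and 2 with one named sgRNA2, the guides being induced in all 8 by doxycycline at 1 µg/ml for 3 days. All 8 are also recorded with GlutaMAX at 2 mM. The labels give neither the target of the guides in each arm nor whether the cells are clones, and nothing says that replicates came from separate cultures, so p-values measure only the spread between these libraries. Levels are given as CPM, counts relative to library size. KAT5 itself was measured at 18.6, 18.3, 20.2 and 18.0 CPM in the KO libraries and at 48.2, 45.5, 44.5 and 49.0 CPM in the control libraries, a log2 fold change of -1.32 ± 0.06 (SE; edgeR, adjusted p = 6.71e-13). KAT5 transcripts were thus lower but not lost, and 38.6% of its exonic bases overlap exons of RNASEH2C on the other strand.

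Immediate-early genes are transcribed within minutes of a stimulus without new protein synthesis, and their mRNAs are short-lived. EGR proteins are zinc finger transcription factors that bind GC-rich sites, and their activity is restrained by the corepressors NAB1 and NAB2. NR4A proteins are orphan nuclear receptors that bind DNA as monomers, and some of them also bind with RXR partners. IER2 and IER5 are related nuclear proteins, IER5 being known as a partner of the heat shock factor HSF1, and IER3 is a small stress-induced protein linked to survival signalling. Transcription of several of these genes is driven by the serum response factor SRF with its ternary complex partners ELK1, ELK3 and ELK4 at CArG boxes, and by CREB at cAMP response elements with the core TGACG.

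Start-site sequences were available in RefSeq (GRCh38.p14) for 7 of the 10 genes, in 10 windows, of which 250 bases before the start were searched. A CArG box (2 C, 6 A or T, 2 G) was found in 1.16% of all 35116 windows of that length, and TGACG on either strand in 21.2%. EGR1 held CArG boxes at -105 and -83 relative to its start and TGACG, read as CGTCA, at -135 and -66. The most downstream of the 3 EGR2 starts held a CArG box at -71 and TGACG at -110 and -54. In NR4A3 TGACG occurred at -109, -91, -83 and -25, with no CArG box. IER2 held TGACG once, at -140, and EGR4 held it at -177 and -109, the latter within an annotated exon of EGR4. Neither motif was found in IER5, in the 2 windows of NR4A1 or in the other 2 of EGR2. Any further starts of NR4A1, which has 22 transcripts in GENCODE v29, were not searched. More than 1 CArG box, as in EGR1, occurred in 0.0313% of all windows, and a CArG box together with TGACG in 0.194%. More than 1 TGACG, as in EGR1, EGR2, EGR4 and NR4A3, occurred in 4.76%. The EGR site GCGGGGGCG (4.72% of windows, both strands searched) and the NR4A site AAAGGTCA (1.05%) had no match in the windows of these genes. A match describes letters and does not show binding. The sequences with the most matches are printed to show where these letters lie, with IER5 as an example that has none. They were chosen by their matches, and nothing about the size of a change is read from them. Each reads 5′ to 3′ on the gene's strand (EGR2 minus, the others plus), capitals mark CArG boxes and TGACG or CGTCA, and NR4A3 stops before its annotated exon, which leaves out the match at -25.
EGR1 chr5:138465229-138465478: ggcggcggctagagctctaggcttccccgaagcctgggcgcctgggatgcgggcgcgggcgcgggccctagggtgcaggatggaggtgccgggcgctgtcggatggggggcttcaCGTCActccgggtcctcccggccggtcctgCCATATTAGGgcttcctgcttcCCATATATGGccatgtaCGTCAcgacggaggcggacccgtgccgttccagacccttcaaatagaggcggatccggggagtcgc
EGR2 chr10:62816367-62816616: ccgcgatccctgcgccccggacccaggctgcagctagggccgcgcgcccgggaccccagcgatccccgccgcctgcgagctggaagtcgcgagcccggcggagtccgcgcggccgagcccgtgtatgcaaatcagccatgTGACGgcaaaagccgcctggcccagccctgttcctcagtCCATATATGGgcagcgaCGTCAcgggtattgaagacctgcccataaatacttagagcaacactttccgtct
NR4A3 chr9:99821635-99821854: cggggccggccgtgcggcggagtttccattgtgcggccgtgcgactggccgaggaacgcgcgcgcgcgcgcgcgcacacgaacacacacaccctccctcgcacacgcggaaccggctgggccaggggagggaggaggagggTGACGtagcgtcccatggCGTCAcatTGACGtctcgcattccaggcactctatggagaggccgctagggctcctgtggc
IER5 chr1:181088450-181088699: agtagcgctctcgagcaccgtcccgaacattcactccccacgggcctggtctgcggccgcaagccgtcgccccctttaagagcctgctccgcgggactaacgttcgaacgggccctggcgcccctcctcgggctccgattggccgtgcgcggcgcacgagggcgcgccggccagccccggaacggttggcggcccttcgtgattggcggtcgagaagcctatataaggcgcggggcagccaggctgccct

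Transcripts of EGR1, EGR3, NR4A1 to NR4A3, IER2 and IER5 were higher in the KO than in the control libraries, from 8.76-fold for EGR1 to 1.35-fold for NR4A1. EGR2 and IER3, at about 1 CPM or less, were also higher, and EGR4 was seen only in KO libraries. Values are CPM with library sizes scaled by the trimmed mean of M values (TMM), and each test is edgeR's quasi-likelihood test over 14455 genes with Benjamini-Hochberg adjustment and a threshold of 0.05. Of all tested genes 31.8% were called higher in KO, so a higher call is common in these data. Of these, 7 met the low-count cut-off of 0.716 CPM in libraries of both arms, and all 7 were called higher. Their median log2 fold change was 1.00, against 0.01 over all tested genes. EGR2 and IER3 met it through KO libraries alone and so had to differ, and EGR4 was not tested. For each of the 7 genes every KO library lay above every control library, an arrangement that 27.3% of tested genes share. EGR2, IER3 and EGR4 showed it too, which is not read against that share. The 10 genes were chosen with earlier results of these data known, so the shares beside them are descriptions and not independent support. In bulk RNA, more cells with a transcript and more transcript per cell cannot be told apart.

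**Figure D1:**
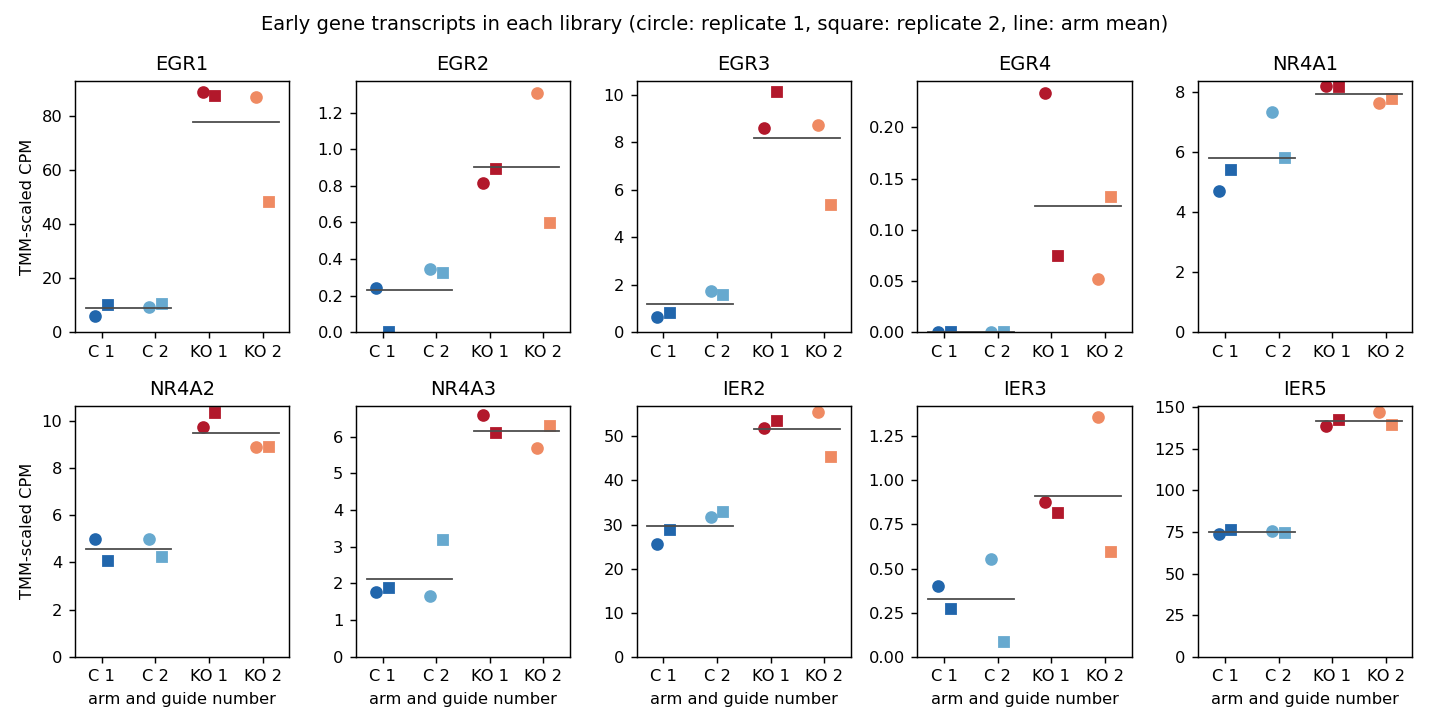
TMM-scaled CPM (vertical axes, starting at 0 and scaled per gene) of each early gene in the 8 libraries, by arm (C, control; KO) and guide number, with circles for replicate 1, squares for replicate 2 and lines for arm means. All KO points lie above all control points in every panel, and the KO sgRNA2 replicate 2 square lies below the other KO points for EGR1, at 48.1 CPM, and for EGR3, at 5.36 CPM.

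EGR1 (Entrez 1958, plus strand of chromosome 5, 138465479 to 138469303) showed the widest gap. It was at 88.8 and 87.3 CPM in KO sgRNA1, 86.9 and 48.1 CPM in KO sgRNA2, 5.98 and 9.97 CPM in control sgRNA1 and 9.32 and 10.3 CPM in control sgRNA2. The other KO libraries were close together and the KO sgRNA2 replicate 2 library lay well below them, yet still above every control. The means were 77.8 ± 19.8 CPM (SD, n = 4) and 8.88 ± 1.97 CPM (SD, n = 4), and the log2 fold change was 3.13 ± 0.18 (SE; edgeR adjusted p = 5.25e-12). Of all tested genes, 0.969% had a larger log2 fold change than EGR1.

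EGR3 (Entrez 1960, chromosome 8, 22687659 to 22693480, minus strand), a relative with a similar zinc finger domain, was at 8.59 and 10.1 CPM in KO sgRNA1 and 8.73 and 5.36 CPM in KO sgRNA2. Control sgRNA1 held 0.646 and 0.808 CPM and control sgRNA2 1.73 and 1.55 CPM. As for EGR1, the lowest KO value was in sgRNA2 replicate 2. Unlike for EGR1, both sgRNA2 controls exceeded both sgRNA1 controls. EGR3 rose 6.26-fold, a log2 fold change of 2.65 ± 0.25 (SE; edgeR adjusted p = 1.09e-08), and 1.56% of tested genes rose more.

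EGR2 (Entrez 1959, chromosome 10, 62811996 to 62819167, minus strand), known for its role in myelinating cells, was sparse. The 4 KO libraries held 0.818, 0.891, 1.31 and 0.596 CPM and the controls 0.242, 0, 0.345 and 0.326 CPM, from 60 and 12 counts in all. The ratio of the pooled CPM was 3.31, with an exact 95% interval of 1.76 to 6.75 that covers counting error only. Its log2 fold change was 1.72 ± 0.44 (SE; edgeR adjusted p = 0.00193). EGR2 met the low-count cut-off through KO libraries alone, so this call is not counted as support.

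EGR4 (Entrez 1961, chromosome 2, 73290929 to 73293548, minus strand) had 4, 1, 1 and 2 counts in the KO libraries and 0 in each control. With the control group set to a floor of 3 counts, the ratio of the pooled CPM was 1.76. That value depends on the floor and is not a lower limit. With no filter on low counts edgeR gave it an adjusted p of 0.103, so the difference was not detectable at this depth.

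NR4A3 (Entrez 8013, chromosome 9, 99821885 to 99866891, plus strand) changed most of the 3 nuclear receptors. Its KO libraries held 6.60, 6.09, 5.70 and 6.29 CPM and its controls 1.78, 1.89, 1.66 and 3.17 CPM. The KO values were tightly grouped, whereas control sgRNA2 replicate 2 stood above the other controls. NR4A3 rose 2.86-fold, a log2 fold change of 1.52 ± 0.19 (SE; edgeR adjusted p = 5.35e-07).

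NR4A2 (Entrez 4929, chromosome 2, 156324437 to 156332721, minus strand), a factor needed by dopaminergic neurons, was at 9.76, 10.3, 8.89 and 8.87 CPM in KO and 5.01, 4.04, 4.97 and 4.23 CPM in control libraries. The arms were well separated and neither guide number stood out. The log2 fold change was 1.00 ± 0.12 (SE; edgeR adjusted p = 4.43e-07).

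NR4A1 (Entrez 3164, chromosome 12, 52022832 to 52059503, plus strand), also called Nur77, moved least. It was at 8.18, 8.17, 7.63 and 7.75 CPM in KO libraries and 4.69, 5.39, 7.32 and 5.78 CPM in controls, where sgRNA2 replicate 1 almost reached the KO range. The log2 fold change was 0.43 ± 0.13 (SE; edgeR adjusted p = 0.00817), and 20.2% of tested genes rose more. This call was lost without control sgRNA1 replicate 1, its lowest library (0.29, adjusted p = 0.0820), and when all libraries were thinned to 3723992 counts (0.39, adjusted p = 0.179).

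IER5 (Entrez 51278, chromosome 1, 181088700 to 181092900, plus strand), a gene with a single exon, was the steadiest. It was at 138, 142, 147 and 139 CPM in KO and 73.7, 76.0, 75.3 and 74.6 CPM in control libraries, with coefficients of variation of 2.81% and 1.31%. The libraries of each arm lay close together, and the log2 fold change was 0.92 ± 0.04 (SE; edgeR adjusted p = 5.19e-13). For 9.35% of tested genes the rise was larger.

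IER2 (Entrez 9592, chromosome 19, 13150411 to 13154911, plus strand) was at 52.0, 53.4, 55.5 and 45.4 CPM in KO and 25.6, 28.8, 31.7 and 32.8 CPM in control libraries. Again KO sgRNA2 replicate 2 was the lowest KO library, and the log2 fold change was 0.79 ± 0.08 (SE; edgeR adjusted p = 1.49e-08). Of its exonic bases 30.8% overlap exons on the other strand, and as no source used here gives the strand setting of the counting, reads of both strands may not be separable.

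IER3 (Entrez 8870, chromosome 6, 30743199 to 30744547, minus strand) was at 0.876, 0.817, 1.36 and 0.596 CPM in KO and 0.404, 0.269, 0.552 and 0.0814 CPM in control libraries, from 61 and 15 counts. The lowest KO and highest control values nearly met. The ratio of the pooled CPM was 2.69 (exact 95% interval 1.51 to 5.10), and the log2 fold change was 1.42 ± 0.45 (SE; edgeR adjusted p = 0.00946). IER3 met the low-count cut-off through KO libraries alone, so its call is not counted as support. That call was lost without KO sgRNA2 replicate 1 (1.00, adjusted p = 0.101) and without control sgRNA2 replicate 2 (1.00, adjusted p = 0.0672), and 26.5% of its exonic bases overlap IER3-AS1 on the other strand.

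Divided by the deposited gene length, levels spanned a wide range. For some genes that length differs from the exonic bases in GENCODE v29. It is 2342 against 4188 bases for IER5, 2050 against 3072 for IER2, 5439 against 3658 for NR4A2 and 8734 against 6314 for NR4A3. The order and overlaps given here hold for the deposited lengths only. In KO libraries IER5 was highest at 60.5 CPM per kilobase, followed by IER2 at 25.2 and EGR1 at 24.8, whose ranges over libraries overlapped. NR4A2 (1.74), EGR3 (1.61) and NR4A1 (1.31 CPM per kilobase) came next, each overlapping its neighbour, then IER3 (0.736) and NR4A3 (0.706), which also overlapped, EGR2 (0.239) and EGR4 (0.0519). In control libraries IER5 (32.0) and IER2 (14.5 CPM per kilobase) again led and EGR1 followed at 2.83. There NR4A1 (0.953) and NR4A2 (0.839) overlapped, as did IER3 (0.263), NR4A3 (0.243) and EGR3 (0.232), ahead of EGR2 at 0.0605 CPM per kilobase. With these lengths EGR3 stood near NR4A3 in control cells and near NR4A2 in KO cells, while EGR1 moved up to the level of IER2.

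**Figure D2:**
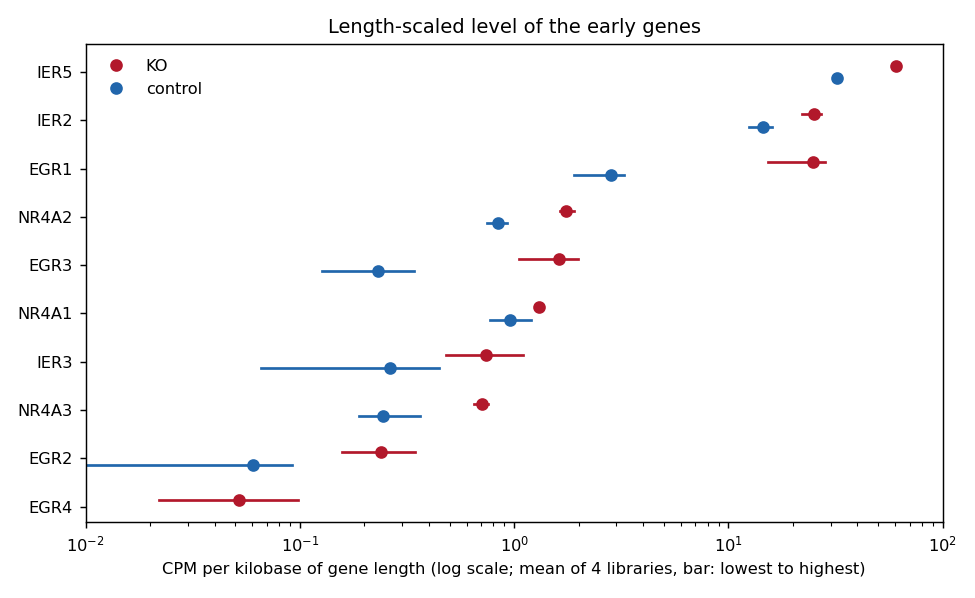
CPM per kilobase of deposited gene length (log axis) of each early gene, as the mean of 4 libraries per arm with bars from the lowest to the highest library. IER5 leads in both arms at 60.5 (KO) and 32.0 (control), EGR1 moves from 2.83 in control to 24.8 in KO, EGR4 has no control point because its control value is 0, and the EGR2 control bar runs off the axis because 1 library is at 0.

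Within each guide number the direction was the same. Of the 7 genes that met the cut-off in both arms, 7 were called higher in KO with sgRNA1 (24.3% of all tested genes) and 6 with sgRNA2 (25.7%). EGR1 rose by 3.66 ± 0.26 on the log2 scale with sgRNA1 (SE; edgeR adjusted p = 5.58e-09) and by 2.80 ± 0.22 with sgRNA2 (adjusted p = 9.38e-09). EGR3 rose by 3.74 ± 0.37 and 2.12 ± 0.27 (edgeR adjusted p = 2.75e-07 and 3.43e-06). IER5 rose almost equally, by 0.91 and 0.93. NR4A1 was called with sgRNA1 (0.75 ± 0.19, edgeR adjusted p = 0.00408) and not with sgRNA2 (0.22 ± 0.16, adjusted p = 0.257). EGR2 and IER3 met the cut-off through KO libraries alone, so their calls by guide number are not counted as support. IER3 was called with sgRNA2 (1.57 ± 0.59, edgeR adjusted p = 0.0341) and not with sgRNA1 (1.17 ± 0.72, adjusted p = 0.195). EGR2 was called with both guide numbers by edgeR (adjusted p = 0.0319 and 0.0267) and with neither by DESeq2 (adjusted p = 0.120 and 0.184). DESeq2 also did not call IER3 with sgRNA2 (adjusted p = 0.165). The sgRNA1 call of EGR2 was lost on leaving out any 1 of the 4 sgRNA1 libraries (edgeR adjusted p from 0.0835 to 0.0933). Its sgRNA2 call was lost without KO sgRNA2 replicate 1 (edgeR adjusted p = 0.421) or either control sgRNA2 library (0.125 without replicate 1, 0.115 without replicate 2), its log2 fold change being 0.80 in the first case. The sgRNA2 call of IER3 was lost without KO sgRNA2 replicate 1 (edgeR adjusted p = 0.451), control sgRNA2 replicate 2 (0.297) or either KO sgRNA1 library (0.0528 without replicate 1, 0.0521 without replicate 2). With 1 library left out the sgRNA2 log2 fold change of IER3 ran from 0.81, without KO sgRNA2 replicate 1, to 3.49, without control sgRNA2 replicate 1, and it was 0.86 without control sgRNA2 replicate 2. The sgRNA1 call of NR4A1 was lost without control sgRNA1 replicate 1 (edgeR adjusted p = 0.152) and when thinned (0.384), as was the sgRNA2 call of NR4A2 when thinned (0.0604).

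The difference of the KO change between guide numbers was tested directly. No early gene and 0% of all tested genes passed edgeR's adjusted threshold, and DESeq2 and limma-voom also called 0 of all genes, while EGR1, EGR3 and IER2 were the 3 early genes with an unadjusted p under 0.05 by edgeR. The difference, sgRNA2 minus sgRNA1, was -0.85 ± 0.39 for EGR1, -1.62 ± 0.56 for EGR3, -0.33 ± 0.14 for IER2 and -0.53 ± 0.25 for NR4A1 (log2, SE). For EGR3, IER2 and NR4A1 most of it lay in the control arm. There sgRNA2 minus sgRNA1 was 0.48 for EGR1, 1.25 for EGR3, 0.28 for IER2 and 0.44 for NR4A1. In the KO arm it was -0.37, -0.37, -0.06 and -0.09, in the same order. The labels do not say whether equal guide numbers share a target across the arms, so pairing by number may be arbitrary. Without KO sgRNA2 replicate 1, which leaves replicate 2 to stand for that group, the EGR1 difference was called at -1.35 (edgeR adjusted p = 0.00863). It was smaller without KO sgRNA2 replicate 2 (-0.51, edgeR adjusted p = 1.00) and without control sgRNA1 replicate 1 (-0.34, adjusted p = 0.888). Between the guide numbers of the control arm 0 early genes were called (0.0277% of all tested genes), as between those of the KO arm (0%), with 3 and 1 at an unadjusted p under 0.05 by edgeR. Without KO sgRNA2 replicate 1, EGR1 was called lower with sgRNA2 within the KO arm (-0.87, edgeR adjusted p = 1.63e-04).

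**Figure D3:**
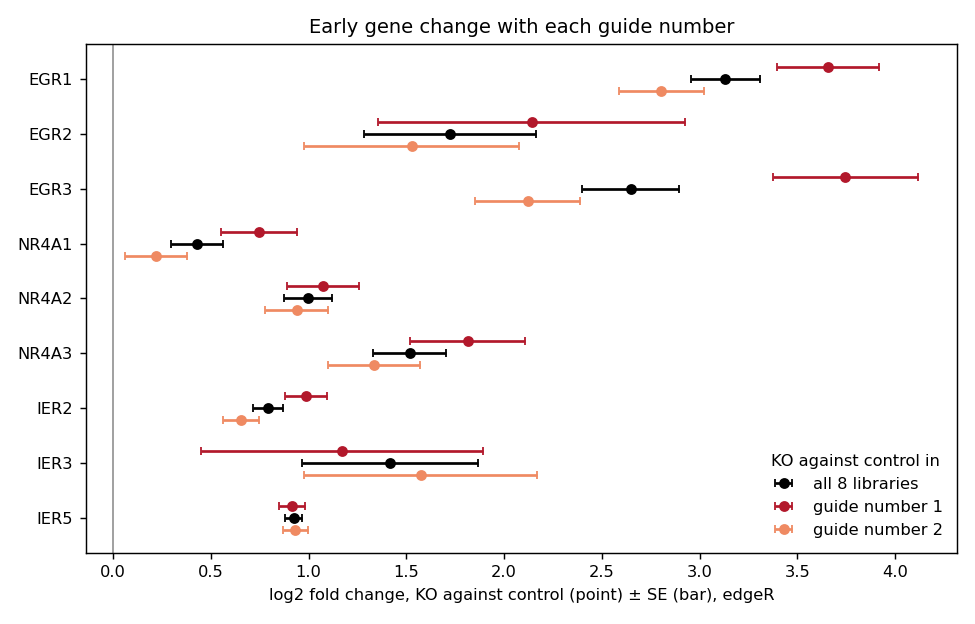
Log2 fold change of KO against control (horizontal axis; points) with edgeR standard errors (bars) for the 9 tested early genes, over all 8 libraries and within each guide number. EGR3 shows the widest separation between the guide numbers, 3.74 against 2.12, and IER5 the narrowest, 0.91 against 0.93. For EGR3, sgRNA2 minus sgRNA1 was 1.25 within the control arm and -0.37 within the KO arm (log2).

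A pair of libraries held the lowest values of many of these genes in their arms. The KO sgRNA2 replicate 2 library held 54.9% of the mean of the other 3 KO libraries for EGR1, 58.7% for EGR3, 59.3% for EGR2 and 58.6% for IER3. For IER2 it held 84.7%, for NR4A2 91.9%, for NR4A1 96.9%, for IER5 97.4% and for NR4A3 103%. It was the lowest KO library for 6 of the 9 tested early genes and for 33 of 40 tested genes in a list of other immediate-early genes, compared with 29.2% of all tested genes. Over all tested genes its median was 99.7% of the other KO libraries, and only 1.92% of genes with a KO mean of at least 1 CPM lay under 70%. Its depth of 15009961 counts was within the KO range and its KAT5 level was 18.0 CPM. With this library and the shallowest library (control sgRNA1 replicate 2) both left out, the EGR1 log2 fold change was 3.38 and that of EGR3 2.79 (edgeR). On the control side, sgRNA1 replicate 1 was lowest for 5 of the 9 (24.1% of all tested genes) and for 14 of the 40 other early genes, at 60.7% of the mean of the other controls for EGR1, 47.5% for EGR3 and 97.9% for IER5. These patterns were noticed after the values had been seen, and what sets these libraries apart was not tested.

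**Figure D4:**
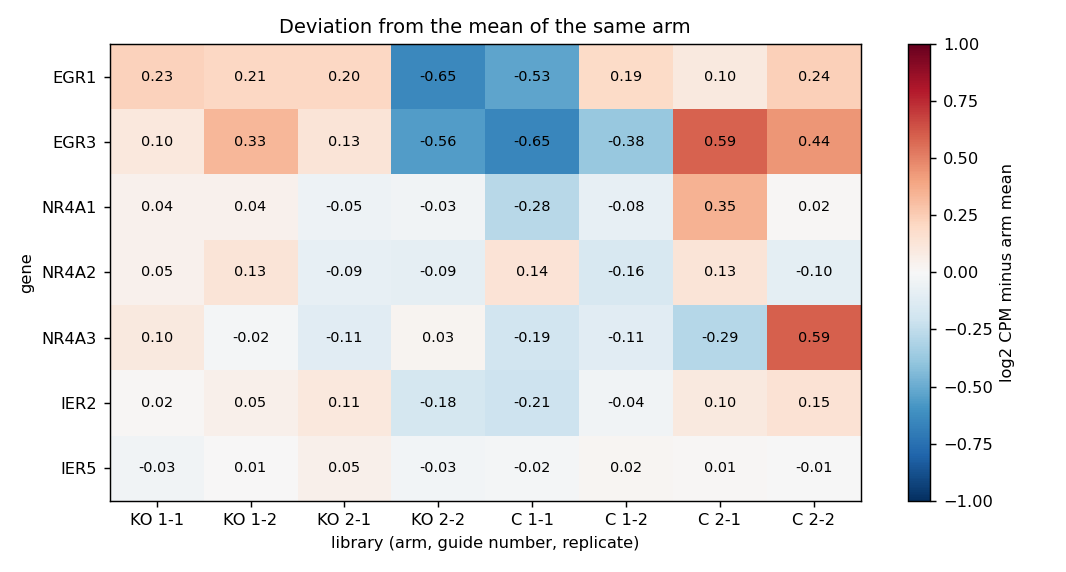
Log2 CPM of each library minus the mean of its own arm for 7 early genes (colour and printed value; columns name arm, guide number and replicate). EGR1 and EGR3 are lowest in KO sgRNA2 replicate 2 (-0.65 and -0.56) and in control sgRNA1 replicate 1 (-0.53 and -0.65), whereas IER5 stays between -0.03 and 0.05.

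Once arm means were removed, EGR1, EGR3 and IER2 varied together over the 8 libraries. Pearson's r of these deviations was 0.93 for EGR3 with IER2, 0.88 for EGR1 with IER2, 0.75 for EGR1 with EGR3 and 0.79 for EGR3 with NR4A1. It was lowest for NR4A2 with NR4A3, at -0.40. Of 21 pairs 15 were positive, with a median of 0.27. All points share libraries and scaling, so these values are descriptions. EGR1 lay below its arm mean only in KO sgRNA2 replicate 2 (-0.65) and control sgRNA1 replicate 1 (-0.53). In the other libraries it deviated by 0.099 to 0.235. Its r values therefore lean on the libraries singled out above, and r without them was not computed. Over the 8 libraries as they stand, the genes whose log2 CPM followed the leading member of each family most closely, among 13391 compared, were ULBP1, HOXB2 and LPIN2 for EGR1 (r = 0.997, 0.997 and 0.996), DPF3 and KPNA4 for NR4A2 (0.997 and 0.996), and USP38, RFPL4A and NUB1 for IER5 (0.999 each). Each r spans both arms and so includes the gap between them.

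The early genes did not rise alone. In the list of 42 other immediate-early genes, which holds AP-1 subunits and feedback inhibitors of MAP kinase among others, 38 of 40 tested were called higher and 0 lower, beside 31.8% and 31.2% of all tested genes. The list was chosen with earlier results of these data known, so its count is a description and not independent support. SPRY4 and MAFF met the cut-off through KO libraries alone; of the other 38, 36 were called higher, the median being 1.38 on the log2 scale. The 2 not called, BTG2 (-0.10) and CREM (0.14), were named after their values were seen, and without control sgRNA1 replicate 1 the number lower was 1. Their regulators showed no such common direction. Of 30 tested upstream regulators 8 were higher and 9 lower (31.2% of all tested genes were lower), and their median was -0.03. Those higher included MRTFA (0.53 ± 0.05, SE, edgeR adjusted p = 1.49e-08), MAP2K1 (0.26), RPS6KA1 (0.26) and EP300 (0.24). Those lower included MAPK3 (-0.90) and RPS6KA4 (-0.80), all of these being named after their values were seen. SRF fell from 84.9 to 70.6 CPM, a log2 fold change of -0.27 ± 0.04 (SE; edgeR adjusted p = 2.47e-05). Of its ternary complex partners ELK3 fell by 0.63 ± 0.06 and ELK1 by 0.16 ± 0.05 on the log2 scale (edgeR adjusted p = 1.78e-08 and 0.00827), the latter not when thinned (adjusted p = 0.109), and ELK4 measured -0.11 ± 0.05 (adjusted p = 0.0523).

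Partners and relatives of these proteins moved both ways, with 3 of 8 tested genes higher and 5 lower, beside 31.8% and 31.2% of all tested genes. Of the 7 that met the cut-off in both arms, 2 were higher and 5 lower. Of the EGR corepressors NAB1 fell from 113 to 80.2 CPM (-0.49 ± 0.05, edgeR adjusted p = 1.09e-08). NAB2, itself a known EGR1 target, rose from 4.93 to 6.34 CPM (0.35 ± 0.13, adjusted p = 0.0253 by edgeR, 0.0798 by DESeq2), a call also lost when thinned and without KO sgRNA1 replicate 1, KO sgRNA2 replicate 1 or control sgRNA2 replicate 1 (adjusted p from 0.0523 to 0.331). WT1, a zinc finger factor with related binding sites, fell by 0.41 ± 0.09 and RXRA, a dimer partner of some NR4A proteins, by 0.61 ± 0.08 on the log2 scale (edgeR adjusted p = 4.33e-04 and 1.71e-06). RXRB was not tested. IER5L, the closest relative of IER5, rose from 2.37 to 6.05 CPM (1.36 ± 0.20, edgeR adjusted p = 5.25e-06). The other calls, named after their values were seen, were HSF1 (-0.20) and IER3IP1 (-0.17), both lower, and PPP2R2B, which was higher at 0.795 to 1.11 CPM against 0 to 0.0808 CPM and passed the filter through KO libraries alone. Of 12 tested genes taken as textbook EGR1 targets, a list that includes EGR1 itself, 11 met the cut-off in both arms. Of these 4 were higher and 3 lower, close to the shares of all tested genes (31.8% and 31.2%). Over all 12, 5 were higher and 3 lower. Those higher included, beside EGR1 and NAB2, FN1 (0.74) and PDGFB, which met the cut-off through KO libraries alone (0.861 to 1.34 CPM against 0.0690 to 0.269 CPM), and those lower were FGF2 (-0.99), TGFB1 (-0.43) and PDGFA (-0.49), again named after their values were seen.

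Of 10 genes that respond to heat and handling 4 were higher and 4 lower, beside 31.8% and 31.2% of all tested genes. The genes called are named here after their values were seen. Those higher were the inducible chaperone HSPA1A (79.1 to 125.9 CPM, log2 fold change 0.67 ± 0.07, edgeR adjusted p = 1.28e-07), its near-identical copy HSPA1B (13.2 to 30.1 CPM, 1.06 ± 0.22), with which reads may be shared, DNAJB1 (0.31 ± 0.05) and HSPH1 (0.15 ± 0.05). Those lower were the abundant HSPD1 (-0.34) and HSPA8 (-0.14), HSPE1 (-0.57) and HSPB1 (-0.54). The part of heat or handling in the change of the early genes was not tested. The list had a summed level of 2527 to 2706 CPM in KO and 2694 to 3066 CPM in control libraries. HEK293 identity was checked on 7 markers, whose sum was 14018 to 15236 CPM in KO and 9117 to 10887 CPM in control libraries, carried mainly by NEFM. Of 5 tested NEFM (0.57), NEFL (0.38) and INA (2.21, log2) were called higher and VIM lower (-0.30), beside 31.8% and 31.2% of all tested genes. PAX2, which met the cut-off in 3 KO libraries and 1 control library, was not called. PAX8 and LHX1 were below 1 CPM throughout. Marker sums of other cell types were low. For leukocytes the sum was 8.12 to 8.99 (KO) against 4.31 to 5.98 CPM (control), with 5 of 7 markers below 1 CPM everywhere. Both tested ones, CD14 and CD68, were higher, and CD14 met the cut-off in only 1 control library. For endothelium it was 2.78 to 3.80 against 0 to 0.404 CPM. There KDR alone was tested, met the cut-off through KO libraries alone and was called higher. Fibroblast markers summed to 24.8 to 27.2 against 18.6 to 28.0 CPM with none of 2 called, hepatocyte markers to 0.234 to 0.594 against 0 to 0.0690 CPM with none tested, and epithelial markers to 13.2 to 16.2 against 16.8 to 20.9 CPM with EPCAM lower. The early genes themselves summed to 262 to 323 CPM in KO and 118 to 133 CPM in control libraries, and the part of other cell types in their change was not tested.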

How the data were processed

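Stranded TruSeq mRNA libraries were sequenced in pairs of reads, per the labels' protocols. The authors deposited raw counts per gene, 1 table per library, made with featureCounts on hg38 per the submitters' processing notes; aligner, annotation and strand setting: not given in the sources used here. Entries with no gene identifier (459 of 28395, 0.0284% to 0.0425% of counts) were left out. Totals ran from 3723992 (control sgRNA1 replicate 2) to 18841774 counts. Replicates differed beyond sampling noise (chi-square per degree of freedom 1.60 to 7.96). Counts were filtered (filterByExpr, minimum count 10, minimum total 15), scaled by TMM and tested with edgeR 4.0.16, with the guide number as a term; contrasts within guide numbers came from a fit of 4 group means. DESeq2 1.42.0, limma-voom (limma 3.58.1), other scalings and filters, thinning and leaving out libraries were tried. The genes and lists were chosen with earlier results of these data known. The 10 genes, KAT5 and a short set of partners are named whatever their values, with the 3 genes most like the leading member of each family; others are named as chosen after their values were seen, and some genes these rules select are not reported here. Exon overlaps are from GENCODE v29 (hg38), positions and start sites from RefSeq GRCh38.p14.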

Additional observations from a re-analysis of the deposited data

Results flagged for a closer look

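In a set of 21 groups of 4 libraries (the early genes and KAT5 in each arm), 2 held a library whose gap to its nearest neighbour, as a share of the group's range, exceeded Dixon's critical value at the 95% level. EGR1 in the KO arm was one, with KO sgRNA2 replicate 2 lowest at 48.1 CPM and a share of 0.953. NR4A3 in the control arm was the other, with control sgRNA2 replicate 2 highest at 3.17 CPM and a share of 0.849. Chance alone flags about 1 group in 20.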

How the results depend on the processing

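Over all genes 4602 were higher and 4507 lower in KO, and leaving out 1 library at a time gave 4209 to 4583 and 4178 to 4739. Of the early genes 8 to 9 were then called higher, 6 to 8 with sgRNA1 and 6 to 8 with sgRNA2, and 0 to 1 for the difference between guide numbers. These counts include EGR2 and IER3 wherever they were called. With all 8 libraries both met the cut-off through KO libraries alone, so their calls are not counted as support. Over all tested genes 31.8% were called higher with all libraries, 24.3% with sgRNA1 and 25.7% with sgRNA2. Thinning left 5 called with sgRNA2, where EGR2 and IER3 no longer passed the filter and NR4A2 lost its call. The stricter filter removed EGR2 and IER3 as well. With no filter 1 early gene, EGR1, was called for the difference between guide numbers (-0.85, edgeR adjusted p = 0.0191) and between KO guides (-0.36, adjusted p = 0.00422). With library totals as the scale the all-gene split was 5019 higher and 4076 lower. The differences between guide numbers that changed sign were all uncalled: 0.16 for EGR2 without the shallowest library and KO sgRNA2 replicate 2 (an alternative added after seeing the data), 0.19 for NR4A3 (thinned; -0.905 to 0.0298 with 1 library left out), -0.357 to 2.32 for IER3 with 1 library left out (below 0 without KO sgRNA2 replicate 1, control sgRNA1 replicate 1 or control sgRNA2 replicate 2), and -0.0224 to 0.0568 for IER5 (below 0 without KO sgRNA1 or KO sgRNA2 replicate 1). Between control guides EGR1 ran from -0.0232, without control sgRNA1 replicate 1, to 0.710 with 1 library left out, and was called at 0.70 (edgeR adjusted p = 0.0245) without the shallowest library and KO sgRNA2 replicate 2. Between KO guides NR4A1 was at 0.0533 when thinned, and IER2 ran from -0.209 to 0.0754 (without KO sgRNA2 replicate 2; 0.0757 also without the shallowest library). The cause was not tested. Replicate numbers did not pair the libraries: deviations of same-numbered libraries correlated between -0.0531 and 0.0276. With the replicate number as a block 4515 genes were higher and 4427 lower, and 9 early genes were called higher, EGR2 and IER3 among them. Counts of 0 to 61 over an arm limit EGR2, IER3 and EGR4.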

Other observations

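A list of 12 regulators of AU-rich and other short-lived mRNAs holds factors that promote decay, the stabilising protein ELAVL1, the translation repressors TIA1 and TIAL1, and subunits of the CNOT deadenylase. Of these 7 were called lower and 2 higher, beside 31.2% and 31.8% of all tested genes. Their median log2 fold change was -0.13, against 0.01 over all genes. This list too was chosen with earlier results of these data known. The 2 higher, named after their values were seen, were ZFP36 (2.28), itself an immediate-early gene, and CNOT7 (0.12). The number higher was 1 under 9 of the alternatives tried, among them each single left-out library other than control sgRNA1 replicate 1. HNRNPD, which promotes decay of such mRNAs and was also named after its value was seen, fell by 0.55 ± 0.04 on the log2 scale (SE; edgeR adjusted p = 5.82e-10). Whether decay of EGR, NR4A or IER transcripts differed was not measured.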
